A study of Mus musculus with 3 samples.

Results

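Spermatocytes of pachytene and later prophase were sought among single cells of mouse testis by a marker count, which picked 1504 of 24252 kept cells. A cell was kept from 500 UMIs (molecular tags, 1 per captured RNA molecule) and 300 detected genes upward if mitochondrial transcripts took no more than 20% of its UMIs. A member had to show at least 3 of 6 late genes (Piwil1, Pou5f2, Mybl1, Ccna1, Ldhc, Tbpl1). It could show no more of 6 early meiotic genes (Dmc1, Prdm9, Meiob, Hormad1, Tex101, Prss50) than of late ones, and fewer of 6 spermatid genes (Acrv1, Spaca1, Spaca7, Tssk1, Tssk2, Izumo1). Prm1, Prm2, Tnp1 and Tnp2 together had to stay under 1% of UMIs. The 3 libraries, 1 per group, all came from mice made azoospermic with busulfan, an alkylating drug toxic to dividing germ cells. The PBS library followed injection of the saline buffer, the EXO library injection of blood exosomes (small secreted vesicles) of wild-type mice, and the dEXO library injection of blood exosomes of mice with an imbalanced gut microbiota. The labels give testis as the tissue, although their extraction text describes aorta, and strain, age and the number of animals are not given in the sources used here. With 1 library per group no test between groups was possible, and all intervals below are at the 95% level and cover nothing but counting error, since the spread between animals could not be measured.

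During pachytene the paired chromosomes are held together by the synaptonemal complex while crossovers form, and the unpaired X and Y are silenced inside the sex body. Many genes for sperm are switched on at the same time, with the transcription factor MYBL1 (A-MYB) among their known activators, and autosomal copies of X-linked housekeeping genes, many of them made by retrotransposition, supply their function while the X is silent. PIWIL1 binds the pachytene piRNAs, CCNA1 is the cyclin of the first meiotic division, LDHC the lactate dehydrogenase of germ cells, TBPL1 a relative of the TATA-binding protein and POU5F2 a POU-domain factor of spermatocytes.

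Promoters are shown here for 2 of the late genes that chose the cells, Ldhc and Piwil1, and for the pair Pgk2 and Pgk1, a phosphoglycerate kinase of germ cells on an autosome and its X-linked parent, whose levels went opposite ways (below). Each run is 300 bases, 250 before to 50 after the start of transcription, 5′ to 3′ on the strand of the gene, from RefSeq on GRCm38.p6. Capitals mark TAACNG, a core of MYB sites, on either strand. Ldhc lies at chr7:46861013-46861312 (plus strand), Piwil1 at chr5:128735996-128736295 (plus strand), Pgk2 at chr17:40208560-40208859 (minus strand) and Pgk1 at chrX:106186850-106187149 (plus strand).
Ldhc: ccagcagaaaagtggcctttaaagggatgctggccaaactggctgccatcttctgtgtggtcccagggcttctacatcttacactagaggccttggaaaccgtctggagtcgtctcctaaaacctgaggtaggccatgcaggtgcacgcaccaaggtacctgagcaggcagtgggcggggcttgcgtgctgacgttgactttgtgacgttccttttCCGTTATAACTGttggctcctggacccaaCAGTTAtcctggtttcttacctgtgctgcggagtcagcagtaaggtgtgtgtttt
Piwil1: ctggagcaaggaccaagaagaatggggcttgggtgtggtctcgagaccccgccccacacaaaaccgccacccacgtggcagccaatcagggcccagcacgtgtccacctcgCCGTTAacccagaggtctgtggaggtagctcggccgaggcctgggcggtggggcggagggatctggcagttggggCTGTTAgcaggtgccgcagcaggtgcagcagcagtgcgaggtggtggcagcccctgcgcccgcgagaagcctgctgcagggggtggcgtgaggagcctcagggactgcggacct
Pgk2: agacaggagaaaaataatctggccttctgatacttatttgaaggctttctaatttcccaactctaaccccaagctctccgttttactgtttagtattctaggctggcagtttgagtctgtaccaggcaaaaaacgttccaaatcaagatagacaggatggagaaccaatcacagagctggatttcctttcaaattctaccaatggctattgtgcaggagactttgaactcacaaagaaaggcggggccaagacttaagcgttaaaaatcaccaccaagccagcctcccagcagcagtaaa
Pgk1: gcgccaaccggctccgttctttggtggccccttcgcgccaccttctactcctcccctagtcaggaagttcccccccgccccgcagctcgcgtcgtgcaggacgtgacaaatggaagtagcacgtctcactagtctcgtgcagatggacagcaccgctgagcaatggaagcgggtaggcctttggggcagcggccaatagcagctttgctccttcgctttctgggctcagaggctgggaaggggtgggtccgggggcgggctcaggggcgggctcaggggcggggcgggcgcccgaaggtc
The motif occurred 3 times in the Ldhc window and 2 times in that of Piwil1, and in neither Pgk window. Of the 6 late genes, 5 had a promoter in the table, and 2 of these held TAACNG, beside 23.2% of the 27025 promoters searched, 1 per gene. The cAMP response element TGACGTCA, searched on both strands, was in 0 of the 5 and in 1.88% of the promoters searched. These matches describe letters in a window and were not tested as binding sites.

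The 3 libraries held 91787154 to 97253862 UMIs over 5514 to 10228 barcodes, and the kept cells of PBS were deeper (median 8403 UMIs) than those of EXO (3257.5) and dEXO (3104). No doublet was called or removed. Kept cells of 2 libraries shared 15 to 17 cell barcodes per pair, and members shared 0, 1 and 0. UMIs of rule genes chose the members, so their levels are given as a description.

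In the PBS library 118 of 5271 kept cells were members, or 2.24% (exact interval 1.86 to 2.67%). The EXO library had 422 of 9862, or 4.28% (3.89 to 4.70%). The dEXO library had 964 of 9119, or 10.6% (9.95 to 11.2%). The intervals did not overlap. The odds of a kept cell being a member were 1.95 times as high in EXO as in PBS (1.58 to 2.42), 5.16 times as high in dEXO as in PBS (4.25 to 6.32) and 2.64 times as high in dEXO as in EXO (2.35 to 2.98). In these shares fewer cells of another type and more cells of this one cannot be told apart.

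By somatic markers, the data went against the label for 860 of the 1504 members (57.2%). A further 150 members, called high-X below, went against it by other genes. Each member's UMIs of 33 synaptonemal complex, cohesin and piRNA genes were set beside its UMIs of 48 markers of 8 somatic classes (Leydig, Sertoli, stromal, macrophage, T or NK, endothelial, myoid and plasma cells). A member is called germ-dominant here if the first were at least as many as the second, and somatic-dominant otherwise, a division made after the data were seen. Germ-dominant were 29 of the 118 PBS members (24.6%, 17.1 to 33.4%), 203 of the 422 EXO members (48.1%, 43.2 to 52.99%) and 412 of the 964 dEXO members (42.7%, 39.6 to 45.9%). In 87 PBS, 197 EXO and 455 dEXO members the germ genes held under 0.1 of the UMIs of both sets, and in 4, 36 and 75 they held between 0.3 and 0.7, so few members lay near the division. The other stages counted from the same markers were germ-dominant more often: 95.6%, 90.2% and 87.1% of early meiotic cells and 71.4%, 79.8% and 79.7% of round spermatids, in the order PBS, EXO, dEXO, which is kept below.

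Markers of several somatic classes led in somatic-dominant members, as the division, which used these markers, required. Insl3, Cyp17a1, Star, Hsd3b1, Cyp11a1 and Hsd3b6, the Leydig hormone and the enzymes and carriers of testosterone synthesis, summed to 36374, 39333 and 28140 CPM (a gene's UMIs per 1000000 UMIs of the same cells), beside 197, 276 and 232 CPM in germ-dominant members. Leydig markers led in 68 of 89 somatic-dominant members of PBS, 125 of 219 of EXO and 273 of 552 of dEXO, Sertoli markers in 9, 28 and 131, and stromal markers in 10, 58 and 112. At least 4 of the 6 markers of 1 somatic class were detected in 88, 205 and 525 of them. Their median depth was 34808, 17968 and 13468.5 UMIs, against 10903, 5281 and 7815 in germ-dominant members, and 84, 198 and 440 of them had 3 late genes, the fewest the rule allows.

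Ldhc, a late gene of the rule, was detected in 98.3%, 98.8% and 99.5% of all members. It stood at 66.6, 287 and 751 CPM in somatic-dominant members and at 6993, 7699 and 7161 CPM in germ-dominant members. In non-germ kept cells it stood at 25.8, 99.6 and 341 CPM. Non-germ cells are 3583, 5715 and 2777 cells of none of the 3 stages that were not germ-dominant and showed few rule genes. Cells outside the 3 stages with more rule genes were left out of them. Low levels and low detection of rule genes in non-germ cells were thus partly set by this choice. With every cell thinned to 1000 UMIs, Ldhc was detected in 94.1%, 91.7% and 91.4% of the members called low-X below (17, 168 and 290 cells deep enough), in 10.1%, 24.9% and 37.5% of somatic-dominant members and in 4.77%, 15.004% and 33.5% of non-germ cells. Its level in non-germ cells rose in the same order as the share of somatic-dominant members among kept cells (1.69%, 2.22% and 6.05%). Tbpl1 was likewise detected in 94.9%, 88.9% and 86.5% of all members, at 41.2, 94.7 and 151 CPM in somatic-dominant ones and 10.1, 15.8 and 12.4 CPM in non-germ cells. Whether free RNA, doublets or depth brought such cells past the rule was not tested.

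The number of late genes went with the division. Of members with 4 or more late genes, 12 of 17 were germ-dominant in PBS (70.6%), 117 of 138 in EXO (84.8%) and 220 of 332 in dEXO (66.3%), while of members just inside the threshold, with 3, the shares were 16.8%, 30.3% and 30.4%. Cells just outside it, with 2 late genes, numbered 659, 1306 and 1840, of which 2.12%, 6.81% and 10.8% were germ-dominant.

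The X-linked share of UMIs, which the rule did not use, split the germ-dominant members again. UMIs of 948 protein-coding X-linked genes made up 0.481%, 0.405% and 0.441% of their UMIs. They were 3.21%, 3.41% and 3.29% in non-germ cells and 3.14%, 3.26% and 3.20% in somatic-dominant members. In early meiotic germ-dominant cells the share was 2.26%, 2.60% and 2.49%, and in round germ-dominant spermatids, where X-linked genes are partly expressed again, 1.11%, 1.03% and 0.872%. Over single cells the germ-dominant members fell into 2 clouds, with 3, 9 and 21 cells between 0.75% and 1.5%. Those under 1% are called low-X below and number 20 in PBS, 171 in EXO and 303 in dEXO. Those at 1% or more, called high-X, number 9, 32 and 109. The X-linked share itself set these groups, so its values in them are a description.

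**Figure D1:**
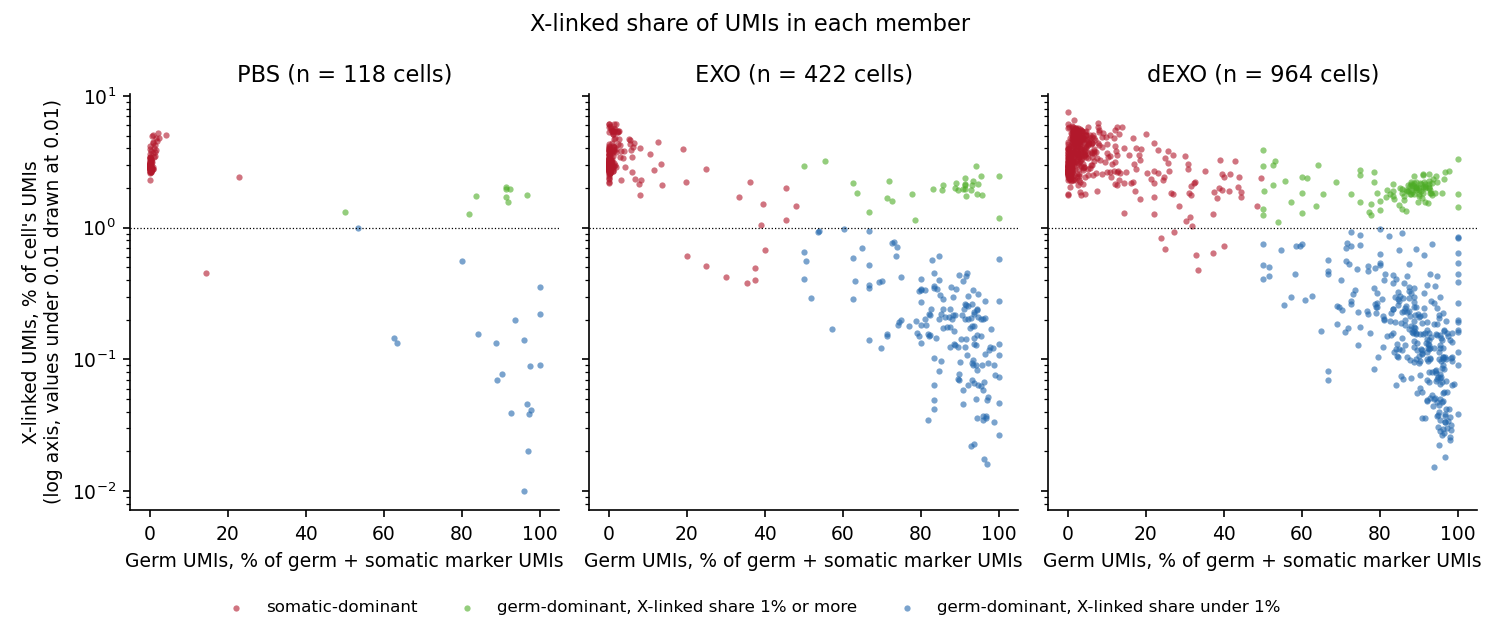
Each point is 1 member, by library: the horizontal axis gives its UMIs of 33 germ genes as a percentage of those plus the UMIs of 48 somatic markers, and the vertical axis the X-linked percentage of all its UMIs on a log scale, with a dotted line at 1%. Somatic-dominant members gather near 0 on the horizontal axis and near 3% X-linked UMIs, while the germ-dominant ones form a high-X cloud near 2% and a low-X cloud with medians of 0.112%, 0.183% and 0.159%.

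Among kept cells, low-X members were 0.379% of the PBS library (0.232 to 0.585%), 1.73% of the EXO library (1.49 to 2.01%) and 3.32% of the dEXO library (2.96 to 3.71%). Their odds were 4.63 times as high in EXO as in PBS (2.90 to 7.78), 9.02 times as high in dEXO as in PBS (5.73 to 15.003) and 1.95 times as high in dEXO as in EXO (1.61 to 2.37). High-X members were 0.171%, 0.324% and 1.20% of kept cells, and the interval of EXO against PBS included 1 (odds ratio 1.90, 0.887 to 4.54). Somatic-dominant members were 1.32 times as likely in EXO as in PBS by their odds (1.03 to 1.72) and 3.75 times as likely in dEXO (2.99 to 4.76). Each of the 3 subsets was lowest in PBS and highest in dEXO, and differences between the subsets' ratios were not tested.

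**Figure D2:**
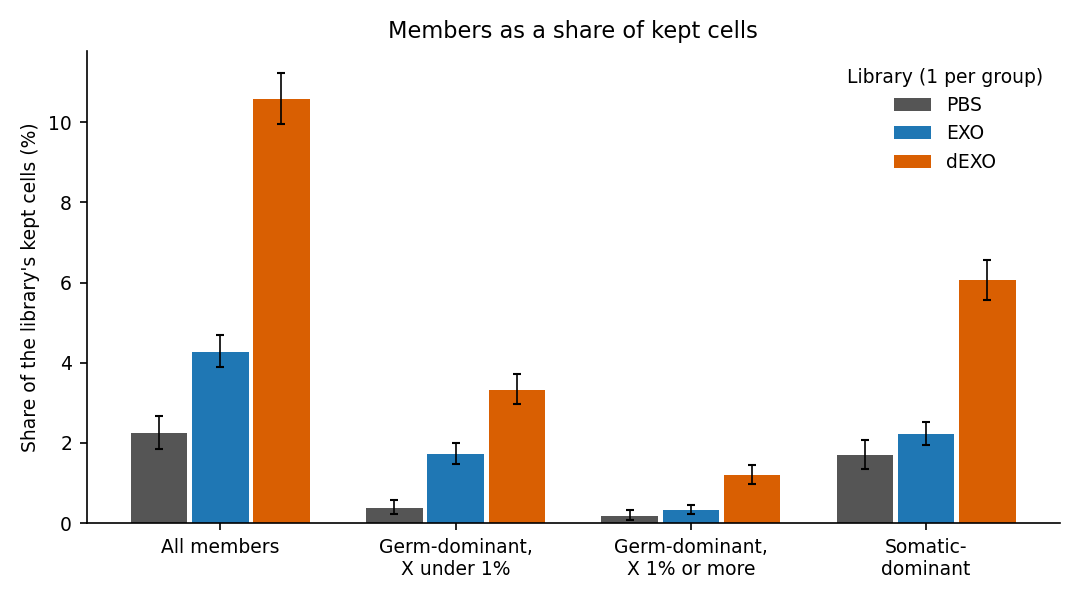
Bars give members as a percentage of kept cells in each library, for all members and for the 3 subsets, and whiskers are exact 95% counting intervals. Every subset is lowest in PBS and highest in dEXO, and the bars of all members stand at 2.24%, 4.28% and 10.6%.

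Set against their neighbouring stages, germ-dominant members, low-X and high-X together, were fewest in PBS. Per germ-dominant early meiotic cell the PBS library had 0.333 of them (0.211 to 0.513), the EXO library 0.886 (0.730 to 1.08) and the dEXO library 1.15 (0.999 to 1.33), with only the PBS interval apart from the others. Per germ-dominant round spermatid the values were 0.446 (0.278 to 0.701), 0.621 (0.518 to 0.742) and 0.651 (0.574 to 0.738), whose intervals overlapped. Over all cells of the 3 stages by the rule, members per early meiotic cell were 1.30, 1.66 and 2.35, and members per round spermatid 1.30, 1.03 and 1.21.

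Low-X members carried the late genes at the highest levels. For Ldhc the PBS cells gave 9182 CPM (8987 to 9379), the EXO cells 8886 (8782 to 8992) and the dEXO cells 8553 (8489 to 8618). The rule used this gene, so these levels are a description. Cells over 100000 UMIs gave 9443, 9459 and 9436 CPM and the other low-X members 8033, 8368 and 7708 CPM. Piwil1 stood at 927, 476 and 562 CPM, Tbpl1 at 765, 1126 and 1048, Ccna1 at 88.9, 295 and 258, Pou5f2 at 103, 171 and 158, and Mybl1 at 101, 90.9 and 93.0. In high-X members the same genes were low, with Ldhc at 146, 194 and 397 CPM, Piwil1 at 44.1, 49.1 and 55.1 and Mybl1 at 0, 12.3 and 15.9. Dmc1, the meiotic recombinase of strand exchange and an early gene of the rule, stood at 47.5, 49.1 and 36.7 CPM in them and at 0, 0.971 and 1.51 CPM in low-X members. Spermatogonia markers (Kit, Zbtb16, Gfra1, Sohlh1, Nanos3, Uchl1 and Dmrt1) summed to 2300, 1951 and 1711 CPM in high-X members, above the 1278, 823 and 886 CPM of early meiotic cells, and to 20.6, 13.6 and 21.6 CPM in low-X members. In all, 494 of the 1504 members were low-X (32.8%) and 150 high-X. The high-X members thus went against the label too, by late genes, Dmc1 and spermatogonia markers. Their X-linked share was 1.83%, 2.08% and 2.04%, beside 2.26%, 2.60% and 2.49% in early meiotic germ-dominant cells.

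The low X-linked share was seen in most of the X-linked genes counted. The low-X choice used the summed share, so a fall of X-linked genes in these members was set in advance and is a description. Positions along the chromosome were not compared. Of X-linked genes with enough UMIs in non-germ cells to be seen, 184 of 187 in PBS (98.4%), 314 of 351 in EXO (89.5%) and 379 of 445 in dEXO (85.2%) were at least 8-fold lower in low-X members than in non-germ cells, beside 31.8%, 30.9% and 29.3% of autosomal genes. The median X-linked gene differed by -5.46, -4.72 and -5.002 on the log2 scale and the median autosomal gene by -1.01, -1.07 and -0.92. No autosome behaved like the X: the share of UMIs of single autosomes in germ-dominant members was 0.705 to 1.63 times that in non-germ cells over the 3 libraries, and that of the X 0.150, 0.119 and 0.134 times. Among X-linked transcripts still counted, Tsga8, a testis-specific gene, led with 39.0, 119 and 80.8 CPM, above its 5.72, 23.3 and 46.9 CPM in non-germ cells. Tmsb4x, a ubiquitous actin-binding peptide, stood at 10.8, 63.1 and 58.9 CPM, beside 1984, 2661 and 2735 CPM in non-germ cells.

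Of 11 autosomal copies of X-linked genes, 9 stood higher in low-X members than in non-germ cells in all 3 libraries, and 6 stood higher than in high-X members. The same shares over all autosomal genes were not counted, so these counts are a description. For autosomal genes with enough UMIs in non-germ cells, the median log2 ratio of low-X members to non-germ cells was -1.01, -1.07 and -0.92. All 11 X-linked parents stood lower in low-X members than in non-germ cells, which the low-X choice favours. A count of 0 in these cells allows up to 3.25 CPM in PBS, 0.971 in EXO and 0.378 in dEXO, so a 0 is not read as absence. UMIs tag transcript ends, so these levels were not divided by length, and each gene is read against its own level elsewhere. Pgk2 stood at 82.4, 181 and 180 CPM in low-X members and at 1.54, 5.25 and 13.9 CPM in non-germ cells, while Pgk1 stood at 4.34, 6.80 and 7.81 CPM in low-X members and 125, 113 and 108 CPM in non-germ cells. The subunit of pyruvate dehydrogenase followed the same pattern, with Pdha2 at 326, 259 and 230 CPM and Pdha1 at 2.17, 1.62 and 1.39 CPM in low-X members. Cetn1, a centrin, stood at 1896, 2381 and 2315 CPM beside 8.71, 31.6 and 86.3 CPM in non-germ cells, and its parent Cetn2 at 0, 3.24 and 1.51 CPM beside 65.6, 58.9 and 60.5 CPM.

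Ribosomal protein pairs also went opposite ways, at high levels. Rpl39l stood at 1144, 1528 and 1345 CPM and Rpl39 at 5.42, 32.7 and 23.7 CPM in low-X members, against 5.72, 22.1 and 60.0 CPM for Rpl39l and 2112, 2547 and 2000 CPM for Rpl39 in non-germ cells. Rpl10l stood at 126, 131 and 136 CPM, and Rpl10 at 3.25, 11.7 and 10.1 CPM in low-X members beside 1685, 1386 and 1285 CPM in non-germ cells. Rbmxl2, an RNA-binding protein of germ cells, stood at 358, 132 and 176 CPM in low-X members and at 305, 247 and 263 CPM already in high-X ones. Not every copy followed: Ubl4b stood at 0, 3.24 and 2.52 CPM in low-X members and at 225, 171 and 129 CPM in round spermatids, and G6pd2 had 0, 0.324 and 0 CPM in low-X members. Zfa-ps, at 6.51, 4.53 and 5.55 CPM, was low but lower still in every other group shown. Utp14b (15.2, 23.0 and 30.0 CPM) and Cstf2t (18.4, 19.1 and 26.2 CPM) were lower in low-X members than in high-X ones (94.99, 75.7 and 94.3 CPM and 44.1, 63.4 and 36.1 CPM).

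**Figure D3:**
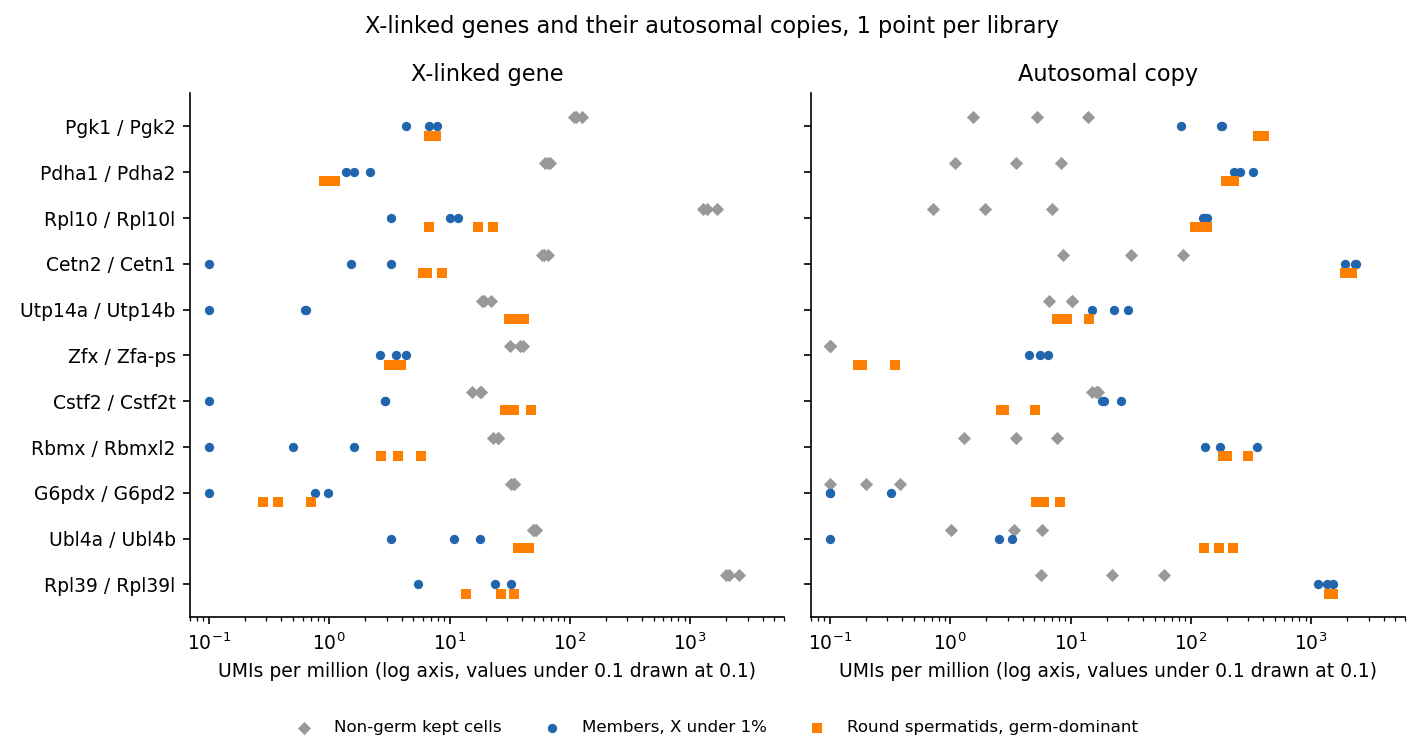
Each point is 1 library, on a log axis of CPM, for 11 X-linked genes (left) and their autosomal copies (right) in non-germ cells, low-X members and round germ-dominant spermatids. All 11 X-linked genes sit lower in low-X members than in non-germ cells, and copies such as Pgk2, Pdha2, Cetn1 and Rpl39l sit far higher.

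The gene lists placed low-X members between early meiotic cells and round spermatids for recombination and sperm structure, and above both for energy and for division. Flagellum genes (axonemal dyneins, tektins and others) summed to 11685, 13373 and 12135 CPM in low-X members, against 185, 301 and 537 CPM in early meiotic cells and 14820, 15322 and 14248 CPM in round spermatids. Meig1, needed to build the manchette, made up most of this list, at 7504, 8598 and 7086 CPM. Acrosome and sperm surface genes summed to 4537, 5283 and 5341 CPM, against 82.2, 153 and 248 CPM early and 7236, 7047 and 6955 CPM in round spermatids, with Crisp2, a secreted protein of sperm, at 2430, 2419 and 2540 CPM. Germ cell isoforms of energy enzymes, at 10796, 10622 and 9397 CPM, exceeded both neighbours (691, 948 and 960 CPM early, 6572, 7641 and 7282 CPM round). Among them were Cox8c, Cox6b2 and Cox7b2, subunits of cytochrome oxidase, and Ldhal6b, a lactate dehydrogenase-like enzyme at 1732, 1694 and 1656 CPM.

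Genes of division were also above both neighbours. The list for the G2 to M transition summed to 3894, 4088 and 3945 CPM in low-X members, against 2287, 2136 and 2061 CPM early and 1941, 2253 and 2578 CPM in round spermatids. Its leading member was Hspa2, the germ cell chaperone that activates CDK1, at 1432, 1231 and 1199 CPM, followed by Cks2, a CDK1 subunit, at 790, 488 and 494 CPM. Pttg1 (securin) stood at 258, 404 and 338 CPM and Birc5 (survivin) at 225, 300 and 327 CPM. Recombination genes were lower than in early cells: crossover genes summed to 359, 343 and 362 CPM (573, 747 and 734 early, 76.5, 88.6 and 102 round), with Cntd1, required for crossover maturation, at 133, 142 and 151 CPM and 0, 10.2 and 9.80 CPM in high-X members. Factors of sex chromosome silencing (Atr, Mdc1, Topbp1, H2afx and others) summed to 811, 666 and 698 CPM, beside 1537, 1918 and 1947 CPM early and 67.7, 101 and 157 CPM in round spermatids. The kinase Atr stood at 268, 263 and 261 CPM in low-X and 102, 182 and 164 CPM in high-X members, and Mdc1, which spreads the silencing mark, at 115, 113 and 116 CPM and 37.3, 57.3 and 58.8 CPM.

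Chaperone genes separated the 2 kinds of germ-dominant members. Hsp90ab1, a constitutive HSP90, stood at 322, 196 and 248 CPM in low-X and 3796, 3251 and 3607 CPM in high-X members, and Hspa8, the constitutive HSC70, at 70.5, 26.5 and 29.1 CPM and 919, 675 and 738 CPM. Hspa2, the germ cell HSP70 given above, stood at 30.5, 42.9 and 88.2 CPM in high-X members. The whole list of heat shock and chaperone genes summed to 5801, 4333 and 4756 CPM in low-X and 9835, 8578 and 8892 CPM in high-X members. Of the piRNA pathway, Mael stood at 892, 686 and 766 CPM in low-X and 224, 174 and 211 CPM in high-X members, Gtsf1 at 718, 766 and 756 CPM and 214, 141 and 135 CPM, and Tdrd6, a scaffold of the chromatoid body, at 269, 360.2 and 373 CPM and 0, 8.18 and 17.8 CPM. Psmc3ip (HOP2), which assists strand exchange, stood at 614, 466 and 489.9 CPM and 81.4, 104 and 90.01 CPM. Uchl1, a ubiquitin hydrolase of spermatogonia, stood at 16.3, 5.50 and 11.7 CPM in low-X and 1411, 1165 and 1029 CPM in high-X members.

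Lists of damage, interferon and immediate early genes were low in low-X members. The list of p53 targets summed to 198, 197 and 193 CPM there, beside 875, 828 and 903 CPM in high-X members, and the interferon list to 35.8, 42.1 and 41.7 CPM beside 1299, 1296 and 1582 CPM in non-germ cells. Immediate early genes summed to 102, 157 and 122 CPM, beside 1058, 726 and 894 CPM in high-X members. Of transcription regulators, Tcfl5 stood at 527, 449 and 460 CPM, Crem, the activator of spermatid genes, at 195, 242 and 250 CPM, and Brdt, the testis bromodomain protein, at 215, 174 and 205 CPM.

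**Figure D4:**
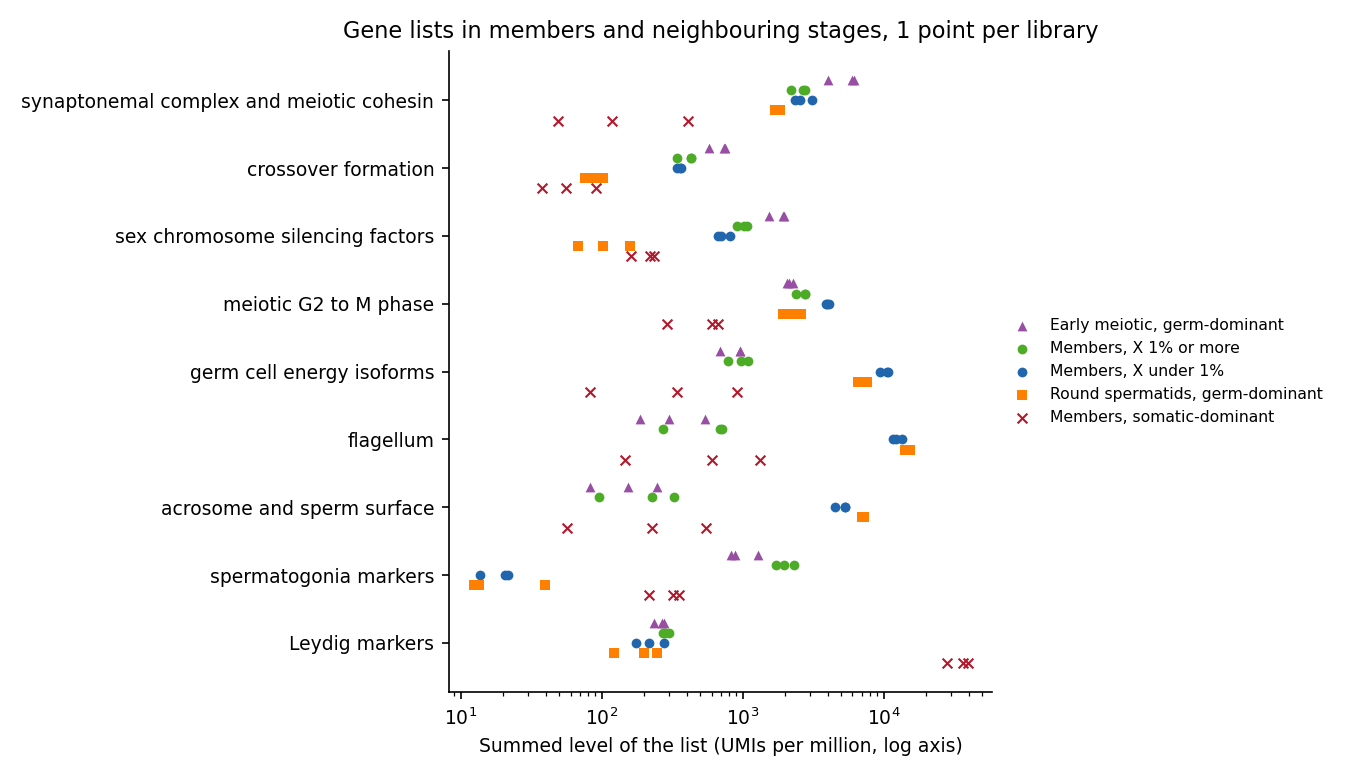
Each point is the summed level of 1 gene list in 1 library, on a log axis of CPM, for early meiotic cells, the 3 subsets of members and round spermatids. Low-X members sit near round spermatids for flagellum, acrosome and energy genes, high-X members near early meiotic cells, and somatic-dominant members carry Leydig markers at 28140 to 39333 CPM.

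Genes peaking in germ-dominant members, low-X and high-X together, were named by their ratio to the higher of the early and round stages. They had to be higher than both in all 3 libraries, with at least 50 UMIs in these members of EXO and of dEXO. These cells were chosen by late genes, so the list describes the choice and was not tested. Elfn2, a leucine-rich repeat membrane protein on chromosome 15 (78667331 to 78718771, GRCm38), led with 373, 235 and 234 CPM in germ-dominant members, at most 9.70 CPM early and at most 8.50 CPM in round spermatids. Fbxo43, the meiotic inhibitor of the anaphase-promoting complex also called EMI2, stood at 27.9, 56.2 and 46.6 CPM. Slc2a3, a glucose transporter, stood at 778, 595 and 702 CPM, beside 1.86, 8.39 and 17.6 CPM early and 23.7, 30.6 and 81.5 CPM in round spermatids. Pou2f2 (108, 76.0 and 85.9 CPM), a POU-domain transcription factor, Tcam1 (155, 163 and 169 CPM), a testis adhesion molecule, Cers3 (58.4, 47.2 and 43.4 CPM), a ceramide synthase of very long chains, and Phf2 (54.2, 57.6 and 51.3 CPM), a histone demethylase, were among the other leading genes, with Rnf144b, Fam13c, Pnmal1, Kif4-ps, C2cd4b, Dcdc2b, Chst1 and Mlc1. Of the 15 named genes, 11 had a promoter in the table, and 3 of these (27.3%) held TAACNG, beside 23.2% of all promoters searched.

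The germ-dominant members, low-X and high-X together, were also set along a range. They were ordered by the share of synaptonemal complex UMIs among these plus acrosome and flagellum UMIs and divided into 3 equal parts, in EXO (67, 67 and 68 cells) and dEXO (137, 137 and 138 cells). The first part, richest in synaptonemal complex UMIs, had 67.2% low-X cells in EXO and 36.5% in dEXO, and the second and last parts 91.0% and 95.6% in EXO and 90.5% and 93.5% in dEXO. Lists outside the ordering moved along it. Silencing factors went from 1297 to 793 to 382 CPM in EXO and from 1295 to 1325 to 449 CPM in dEXO. Crossover genes went from 626 to 409 to 189 CPM in EXO and from 544 to 638 to 254 CPM in dEXO.

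The 6 late genes did not move together along the range. Ldhc, Tbpl1 and Ccna1 were higher in each later part of both libraries, and Mybl1 was highest in the second part of both. Pou5f2 stood at 17.0, 203 and 173 CPM in EXO and 9.28, 110 and 181 CPM in dEXO. Ccna1 stood at 19.6, 198 and 415 CPM over the EXO parts and at 18.1, 61.5 and 324 CPM over the dEXO parts. Of genes outside the rule, Pgk2 stood at 6.53, 143 and 241 CPM and 11.2, 49.8 and 222 CPM. The late gene Piwil1 was lower in the last part than in the second, at 690, 568 and 180 CPM in EXO and 399, 1350 and 293 CPM in dEXO. Aurka, a spindle kinase, stood at 50.9, 215 and 361 CPM and 43.5, 74.0 and 294 CPM. H3f3b, a gene of the replacement histone H3.3, fell from 2558 to 1152 to 681 CPM in EXO and from 3946 to 2177 to 675 CPM in dEXO. The parts divide an ordering and are not types. The first part mixed low-X and high-X cells, with 67.2% low-X in EXO and 36.5% in dEXO. The part of this mix in its differences from the later parts was not tested. The PBS library, with 29 germ-dominant members, was not divided.

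Over all members, many genes differed at least 2-fold between PBS and the other libraries. Of 12583 genes with at least 50 UMIs over EXO and PBS, 1643 were at least 2-fold higher in EXO (13.1%) and 228 lower (1.81%). Of 14644 genes, 2956 were at least 2-fold higher in dEXO than in PBS (20.2%) and 608 lower (4.15%). Between dEXO and EXO the counts were 199 of 15110 (1.32%) and 119 (0.788%). Flagellum genes were higher in EXO than in PBS in 21 of 21 cases, 17 of them at least 2-fold (median log2 ratio 1.34, beside 0.04 over all genes), and in dEXO than in PBS in 22 of 22, 20 of them at least 2-fold (median 1.56, beside 0.21). Immediate early genes were lower in 16 of 17 (median -0.89) and 17 of 17 (median -1.51). With cells thinned to 2000 UMIs before the rule was applied, the medians in dEXO against PBS were -0.026 for flagellum and 0.99 for immediate early genes. Members were then 0.211% of the PBS cells deep enough and 5.15% of the dEXO cells, so the PBS side of these medians rested on few cells. Both comparisons share the PBS library. Somatic-dominant members held 3152533 of 4369258 member UMIs in PBS, 3782213 of 7360951 in EXO and 7930776 of 17498688 in dEXO, and the part of this mix in the differences was not tested. In germ-dominant members alone, the flagellum medians were 0.48 in EXO and 0.50 in dEXO against PBS. Of these genes 2 of 19 and 6 of 22 were at least 2-fold higher, beside 570 of 8691 and 927 of 11378 of all genes. The medians of immediate early genes were then -0.21 and -0.13.

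Within low-X members the EXO and dEXO libraries were close. Of 10128 genes measured, 72 were at least 2-fold higher in dEXO (0.711%) and 87 at least 2-fold lower (0.859%), and no gene of the 15 lists passed 2-fold. List medians ran from -0.14 (immediate early genes) to 0.14 (synaptonemal complex genes), around a median of 0.03 over all genes. Over all genes measured, 5581 were higher in dEXO and 4547 lower, 1123 with an interval above 0 and 935 with one below. For the synaptonemal complex 8 of 11 measured genes were higher in dEXO, with 6 intervals above 0 and 2 below. Sycp1, its transverse filament, stood at 149 CPM in EXO (136 to 163) and 232 CPM in dEXO (221 to 243), a log2 ratio of 0.64 (0.49 to 0.79), and Smc1b, a meiotic cohesin, at 246 and 328 CPM (0.42, 0.30 to 0.53). The mean over cells, each weighed equally, gave the same direction, at 220 and 397 CPM for Sycp1 and 230.2 and 286 CPM for Smc1b. The PBS values depended on the weighing: Sycp1 stood at 400.2 CPM pooled and 175 CPM as a mean over cells, and Smc1b at 419 and 272 CPM, with 96.5% and 92.2% of their PBS UMIs in 4 cells. Heat shock genes were higher in dEXO in 10 of 13 cases (median 0.12), 4 of them with an interval above 0, with Hsp90aa1 at 2422 and 2721 CPM (0.17, 0.13 to 0.21). Acrosome genes had a median of -0.05, with 1 of 11 intervals below 0 and 1 above. The one above was Crisp2 (0.07, 0.03 to 0.11), whose mean over cells was lower in dEXO (1521 CPM) than in EXO (1782 CPM).

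Single genes with the interval bounds farthest from 0 were mostly low in level, and some depended on a few cells. Zfp389, a zinc finger gene, stood at 22.01 CPM in EXO and 47.9 CPM in dEXO (log2 ratio 1.12, 0.75 to 1.52). Tmem267, a membrane protein gene, stood at 112 and 194 CPM (0.80, 0.63 to 0.97), but its mean over cells was 175 CPM in EXO and 137 CPM in dEXO, the other direction. Lower in dEXO were Cox7b2, the cytochrome oxidase subunit, at 1479 and 1081 CPM (-0.45, -0.51 to -0.40), Map4k1, a kinase best known from blood cells, at 205 and 131 CPM (-0.65, -0.80 to -0.51), and Hist1h2bp, a histone H2B gene, at 58.3 and 27.3 CPM (-1.09, -1.38 to -0.80). Meig1 (-0.28) and Cox8c (-0.28) were lower by less. Ptcra, known from developing T cells, stood at 48.9 and 2.52 CPM (-4.28, -5.03 to -3.60), but 1 cell held 64.2% of its 151 UMIs in EXO, and with each cell weighed equally and none over 100000 UMIs its log2 ratio was 1.26.

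Markers of other cells moved with these comparisons. Summed stromal markers stood at 11.9, 113 and 45.0 CPM in low-X members, with 4 of 4 measured genes at least 2-fold lower in dEXO than in EXO, among them Col3a1, a fibrillar collagen, at 0, 21.4 and 6.55 CPM and Pdgfra, a fibroblast receptor, at 1.08, 16.2 and 4.92 CPM. With each cell weighed equally and none over 100000 UMIs, the log2 ratio of Pdgfra was 0.016. Sertoli markers stood at 34.7, 99.7 and 133 CPM and were higher in dEXO than in EXO in 4 of 4 measured genes, and Leydig markers stood at 174, 275 and 218 CPM. Macrophage markers summed to at most 5.18 CPM and endothelial markers to at most 3.56 CPM. The part of RNA of other cells in the differences between low-X members was not tested.

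Against PBS, low-X members could be compared only through a few deep cells. Members of more than 100000 UMIs numbered 4 in PBS, 7 in EXO and 19 in dEXO, all low-X, and held 81.4%, 47.5% and 48.9% of the low-X UMIs. The deep PBS cells differed from the deep cells of the other libraries: Piwil1 stood at 1000 CPM in them against 283 and 315 CPM, Tex101, an early meiotic surface protein, at 510 against 66.1 and 66.5 CPM, and Ccna1 at 69.2 against 309 and 317 CPM. In the other low-X members Piwil1 stood at 608, 651 and 798 CPM, and Tex101 at 140, 271 and 381 CPM. Of 7256 genes measured, 517 were at least 2-fold higher in EXO than in PBS (7.13%) and 251 lower (3.46%). Of 9466, 887 were at least 2-fold higher in dEXO than in PBS (9.37%) and 209 lower (2.21%).

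List medians against PBS mostly changed direction over 6 alternatives, chosen after seeing the data: 4 of 15 lists kept theirs in all 6 for EXO and 1 of 15 for dEXO. Synaptonemal complex genes had a median of -0.68 in EXO against PBS (range -0.75 to 0.36), and piRNA genes -0.38 (-0.43 to 0.56). Flagellum genes kept their direction in all 6, at 0.30 (0.06 to 0.32) in EXO and 0.36 (0.02 to 0.45) in dEXO, and acrosome genes at 0.52 (0.09 to 0.55) in EXO, while in dEXO they stood at 0.54 (-0.01 to 0.60). The list of the G2 to M transition stood at 0.37 in EXO (0.15 to 0.41), higher in each alternative, and at 0.45 in dEXO (-0.14 to 0.43). Heat shock and chaperone genes stood at -0.28 in EXO (-0.45 to -0.07), lower in each alternative, and at 0.05 in dEXO (-0.30 to 0.16). No ratio of a single gene against PBS is given for this reason.

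**Figure D5:**
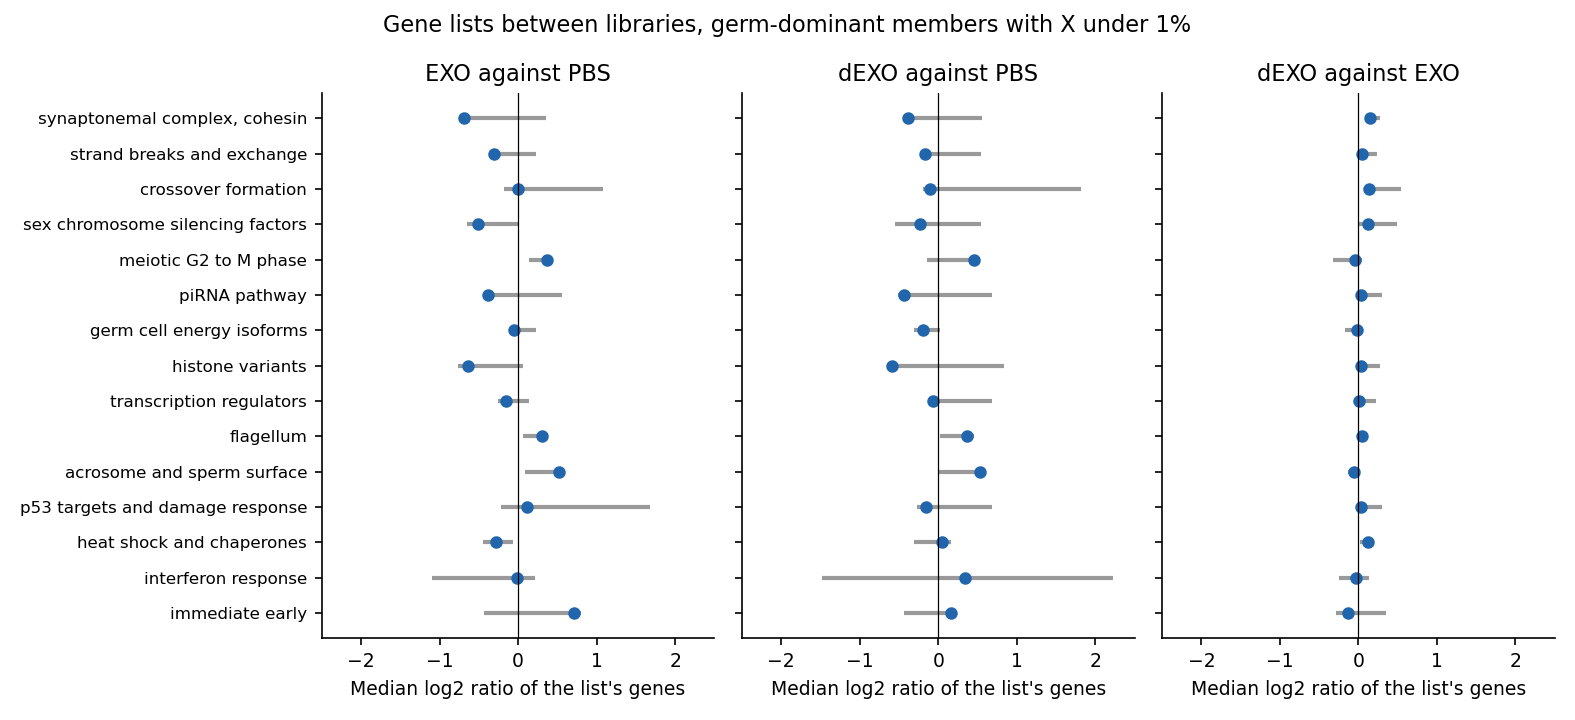
Dots give the median log2 ratio of each list's genes between 2 libraries in low-X members, and grey bars the range over this value and 6 alternatives (equal weight per cell, no cell over 100000 UMIs, both, the median gene as reference, 4 or more late genes, mixed barcodes left out). Bars of most lists cross 0 against PBS, while those of dEXO against EXO lie within -0.33 and 0.55.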

How the data were processed

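Single-cell RNA of mouse testis was measured in 3 libraries with a 10x 3' kit (version 3), per the labels. Each deposited matrix gives UMI counts by gene and cell without normalization, which the authors made with Cell Ranger 5.0.1, per the file headers. GRCm38 and Seurat appear in the submitters' processing notes with no stated role. All 55450 genes matched GENCODE M21 by ID and symbol. The counts were used as deposited, with totals of 97253862 (PBS), 91787154 (EXO) and 96655663 (dEXO) UMIs. No doublet caller was run. A barcode with at least 4 of 6 markers of 1 somatic class is called mixed, whether or not it showed germ genes, so a well-marked somatic cell is called mixed too. In an alternative, mixed barcodes were left out of the members and of all kept cells. Its shares thus have a smaller base and are not shares after removal of doublets.

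The members and gene lists were chosen with earlier results of these data known. Counts were summed over members and scaled to CPM. A gene needed 50 UMIs over both libraries, a log2 ratio of 1 in size was the threshold for counting it as different, a gene at 0 in 1 library was given a floor of 3 counts, and ratios had exact conditional binomial intervals. Shares had Clopper-Pearson intervals. UMIs are counts of molecules, and all intervals cover counting error only, since each group had 1 library and no test between groups was possible. Named genes were the rule genes, up to 4 genes per list by level and 2 by difference, the X-linked genes and their copies, the 15 genes highest over both neighbouring stages, and the 10 highest and 10 lowest per pair of libraries by the bound nearest 0. The last set is drawn on for dEXO against EXO in low-X members. Hspa8 was named after its values were seen. Alternatives were the limits on cells, late genes and gene counts, thinning, and other weights. Sums used numpy 2.4.6 and pandas 2.3.3 under Python 3.11.15, intervals scipy 1.17.1 and plots matplotlib 3.10.9, and the scripts were tested on simulated data.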

Additional observations from a re-analysis of the deposited data

How the results depend on the processing

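The order PBS, EXO, dEXO of the shares of members held under every alternative below, while their size did not. Low-X members of PBS held 921958 UMIs, against 3089674 in EXO and 7934821 in dEXO, so low genes were measured least precisely in PBS. The cause of each change was not tested. No paired analysis was possible because each group had 1 library, which also leaves no replicate to leave out. The divisions into germ-dominant, low-X and high-X members, and the alternatives without cells over 100000 UMIs, were chosen after seeing the data. Of the library-level values recomputed, 164 stayed and 136 moved. Shares and ratios of cell counts stayed if within their counting interval, and counts of genes and lists if within 1.5 times. Odds ratios were held only to their direction and to whether their interval excluded 1, so they could stay while changing in size. That of EXO against PBS was 1.95 over all members, 3.80 in germ-dominant and 4.63 in low-X members, and is not listed below. Of the list medians over all members 366 stayed, 244 moved and 13 that were at least 2-fold in size changed sign. Of the values in low-X members 395 stayed, 190 moved and 9 that were at least 2-fold in size changed sign. Counting values of any size, the sign changed in 126 of 623 list medians over all members, 79 of 270 list medians in low-X members and 22 of 288 ratios of single genes in low-X members. The 136 library-level values that moved and the values of at least 2-fold that changed sign follow by alternative, with libraries or pairs of libraries in brackets. With cells thinned to 1000 UMIs, the share of members was 0.159% (PBS), 1.08% (EXO) and 2.71% (dEXO) and members per early meiotic cell were 0.667 (PBS). Here, members per round spermatid were 0.211 (PBS), 0.567 (EXO) and 0.789 (dEXO). With cells thinned to 2000 UMIs, the share of members was 0.211% (PBS), 2.10% (EXO) and 5.15% (dEXO) and members per early meiotic cell were 0.588 (PBS) and 1.60 (dEXO). Under it, members per round spermatid were 0.185 (PBS), 0.630 (EXO) and 0.862 (dEXO) and the X-linked share was 0.275% (PBS), 0.694% (EXO) and 1.03% (dEXO). In this setting, genes at least 2-fold higher numbered 128 (EXO/PBS), 351 (dEXO/PBS) and 107 (dEXO/EXO) and genes at least 2-fold lower numbered 69 (EXO/PBS), 265 (dEXO/PBS) and 17 (dEXO/EXO). There, lists with a median above 0 numbered 2 (EXO/PBS), 5 (dEXO/PBS) and 8 (dEXO/EXO) and list medians turned to -0.17 for acrosome genes (EXO/PBS), -0.56 for energy genes (dEXO/PBS), -0.16 for transcription regulator genes (dEXO/PBS), -0.026 for flagellum genes (dEXO/PBS), -0.40 for acrosome genes (dEXO/PBS) and 0.99 for immediate early genes (dEXO/PBS). At a mitochondrial limit of 10%, the X-linked share was 1.88% (EXO). From 1000 UMIs per cell, the share of members was 11.6% (dEXO). From 4 late genes, the share of members was 0.323% (PBS), 1.40% (EXO) and 3.64% (dEXO) and members per early meiotic cell were 0.187 (PBS), 0.543 (EXO) and 0.810 (dEXO). Here, members per round spermatid were 0.187 (PBS), 0.337 (EXO) and 0.418 (dEXO) and the X-linked share was 0.911% (PBS), 0.554% (EXO) and 0.782% (dEXO). In this setting, genes at least 2-fold higher numbered 651 (EXO/PBS), 1007 (dEXO/PBS) and 502 (dEXO/EXO) and genes at least 2-fold lower numbered 873 (EXO/PBS). There, lists with a median above 0 numbered 5 (EXO/PBS), 4 (dEXO/PBS) and 7 (dEXO/EXO) and list medians turned to -0.0060 for energy genes (dEXO/PBS) and -0.038 for transcription regulator genes (dEXO/PBS). From 2 late genes, the share of members was 14.7% (PBS), 17.5% (EXO) and 30.7% (dEXO) and members per early meiotic cell were 8.54 (PBS), 6.80 (EXO) and 6.84 (dEXO). Under it, members per round spermatid were 8.54 (PBS), 4.21 (EXO) and 3.53 (dEXO) and the X-linked share was 2.93% (PBS), 2.75% (EXO) and 2.33% (dEXO). In this setting, genes at least 2-fold higher numbered 2945 (EXO/PBS), 5372 (dEXO/PBS) and 1088 (dEXO/EXO) and genes at least 2-fold lower numbered 135 (EXO/PBS) and 390 (dEXO/PBS). Without mixed barcodes, the share of members was 4.19% (PBS), 9.99% (EXO) and 12.6% (dEXO) of the kept cells that were not mixed. Members per early meiotic cell were then 0.487 (PBS), 1.11 (EXO) and 1.19 (dEXO). Here, members per round spermatid were 0.432 (PBS), 0.704 (EXO) and 0.7002 (dEXO) and the X-linked share was 1.10% (PBS), 0.686% (EXO) and 0.720% (dEXO). In this setting, genes at least 2-fold higher numbered 647 (EXO/PBS) and 1010 (dEXO/PBS) and genes at least 2-fold lower numbered 398 (EXO/PBS) and 63 (dEXO/EXO). There, low-X log2 ratios of dEXO to EXO turned to -0.73 for Col2a1 and 1.77 for Ptcra. Without the members in the top 5% of UMIs, the share of members was 1.75% (PBS), 3.57% (EXO) and 9.43% (dEXO) and members per early meiotic cell were 1.39 (EXO). Under it, members per round spermatid were 0.859 (EXO) and 1.08 (dEXO) and the X-linked share was 2.90% (PBS), 2.38% (EXO) and 2.62% (dEXO). In this setting, genes at least 2-fold higher numbered 328 (dEXO/EXO) and genes at least 2-fold lower numbered 265 (dEXO/PBS). There, lists with a median above 0 numbered 5 (dEXO/EXO). In germ-dominant cells, the share of members was 0.550% (PBS), 2.06% (EXO) and 4.52% (dEXO) and members per early meiotic cell were 0.333 (PBS), 0.886 (EXO) and 1.15 (dEXO). Here, members per round spermatid were 0.446 (PBS), 0.621 (EXO) and 0.651 (dEXO) and the X-linked share was 0.481% (PBS), 0.405% (EXO) and 0.441% (dEXO). In this setting, genes at least 2-fold higher numbered 570 (EXO/PBS) and 927 (dEXO/PBS) and genes at least 2-fold lower numbered 416 (EXO/PBS) and 280 (dEXO/PBS). There, lists with a median above 0 numbered 4 (EXO/PBS) and 4 (dEXO/PBS) and list medians turned to -0.065 for energy genes (dEXO/PBS) and -0.067 for transcription regulator genes (dEXO/PBS). In low-X members, the share of members was 0.379% (PBS), 1.73% (EXO) and 3.32% (dEXO) and genes at least 2-fold higher numbered 517 (EXO/PBS), 887 (dEXO/PBS) and 72 (dEXO/EXO). Under it, genes at least 2-fold lower numbered 209 (dEXO/PBS) and lists with a median above 0 numbered 5 (EXO/PBS) and 6 (dEXO/PBS). In this setting, list medians turned to -0.20 for energy genes (dEXO/PBS), -0.066 for transcription regulator genes (dEXO/PBS) and 0.16 for immediate early genes (dEXO/PBS). As a median over germ-dominant members, the X-linked share was 0.156% (PBS), 0.210% (EXO) and 0.242% (dEXO). Relative to the median gene, genes at least 2-fold lower numbered 1134 (dEXO/PBS). With each cell weighed equally, genes at least 2-fold higher numbered 642 (dEXO/EXO) and genes at least 2-fold lower numbered 403 (EXO/PBS) and 357 (dEXO/EXO). Here, low-X log2 ratios of dEXO to EXO turned to -0.45 for Col2a1 and -0.11 for Plce1. With a gene minimum of 20 UMIs, genes at least 2-fold higher numbered 2488 (EXO/PBS) and 619 (dEXO/EXO) and genes at least 2-fold lower numbered 389 (EXO/PBS) and 271 (dEXO/EXO). With a gene minimum of 100 UMIs, genes at least 2-fold higher numbered 87 (dEXO/EXO) and genes at least 2-fold lower numbered 67 (dEXO/EXO). Over all X-linked genes, the X-linked share was 2.43% (PBS), 1.90% (EXO) and 1.72% (dEXO). With cells weighed equally and none over 100000 UMIs, low-X log2 ratios of dEXO to EXO turned to 0.016 for Pdgfra, -0.58 for Col2a1, 1.26 for Ptcra and -0.21 for Plce1. With none over 100000 UMIs, low-X log2 ratios of dEXO to EXO turned to -0.066 for Col2a1.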
